A study of Mus musculus with 4 samples.

Results

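The genes of the phase II conjugating enzymes were followed in mouse liver. Members were chosen by gene name alone, as every gene of the deposited table whose symbol begins with Ugt1, Ugt2 or Ugt3, with Sult and a digit, with Mgst, or with Gst and one of the class letters a, k, m, o, p, t or z. The name rule gave 49 of the 13903 genes in the table: 16 UDP-glucuronosyltransferase (UGT) genes, 11 sulfotransferase (SULT) genes, 20 soluble glutathione S-transferase (GST) genes and 2 microsomal glutathione S-transferase (MGST) genes. The bulk mRNA-seq series holds 4 libraries, 1 per condition, and each library was made from equal amounts of RNA of 3 mice. All mice were OGT-floxed on C57BL/6J and received the CDE diet, which is deficient in choline, supplemented with ethionine and injurious to the liver. Control mice carried AAV8-TBG-eGFP and OGT-KO mice AAV8-TBG-CRE, where the TBG promoter drives the fluorescent protein or the Cre recombinase in hepatocytes, so that the Ogt gene of other liver cells is left as it was. Livers were collected at the end of the diet (no recovery) or after 7 days of recovery. Age and sex of these mice are not given in the sources used here. OGT is the enzyme that attaches O-GlcNAc to proteins.

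Phase II enzymes attach a polar group to drugs, hormones, bilirubin and bile acids, after which the products can leave the hepatocyte in bile or blood. UGTs sit in the endoplasmic reticulum and use UDP-glucuronic acid, SULTs are cytosolic and use the sulfate donor PAPS, and GSTs attach glutathione to electrophiles or use it to reduce peroxides. The Ugt1a genes share their last exons and differ in the first, while the Ugt2b, Gsta and Gstm genes are sets of duplicated neighbours. The liver is the main site of all of these reactions, and many of the enzymes are made mainly in hepatocytes.

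Levels are in CPM, reads scaled to a total of 1e+06 on listed genes, from 19972699 to 22866431 reads per library, so that 3 reads, the floor used here, are 0.131 to 0.150 CPM. Differences between libraries are log2 fold changes on the log2(CPM + 1) scale, which understates the change of low genes. A member was called higher or lower at a 2-fold difference, among the 8963 genes whose mean over the libraries reached 10 CPM, and 41 of the 49 members passed that filter (14 UGT, 5 SULT, 20 soluble GST and 2 MGST genes). Each condition being a single library, no replicate error exists and the conditions were not tested against each other, so a call describes these libraries, and the intervals given cover counting error only. Libraries are named by their labels, because Ogt itself, with 64.7 and 55.7 CPM in the control libraries and 55.3 and 77.7 in the OGT-KO libraries (no recovery and 7 days), was lower under the OGT-KO label at the first time and higher at the second as deposited, and lower at both with median-ratio scaling (-0.93 and -0.20). Of the hepatocyte markers, 6 of 6 were past the filter in this tissue, with a summed level of 87106 and 93498 CPM in the control libraries and 66213 and 79600 in the OGT-KO libraries. The scaling moves every comparison between the labels. Over all genes tested, the median log2 fold change of OGT-KO over control was 0.51 (no recovery) and 0.48 (7 days) as deposited. Scaling by median ratios instead gave -0.19 and -0.18. After 7 days Ogt lay near these medians in either scaling, at 0.47 as deposited and -0.20 with median ratios.

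Starts of the RefSeq transcripts (assembly GRCm38.p6) are shown for 5 members that stood far apart between the labels. Gsta1, Gsta2 and Gstm3 were higher in the OGT-KO libraries, and Ugt3a1 and Sult2a8 were lower. Each stretch runs 5′ to 3′ from 250 bases before the start and holds 280 bases. For Sult2a8 the more upstream start is shown. Capitals mark GCGTG, the core bound by the AHR-ARNT pair, in Gsta1 and Gsta2, and a match to TTCNNNGAA, the STAT element, further upstream in Gsta1.

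Gsta1 (chr9:78230419-78230698, plus strand): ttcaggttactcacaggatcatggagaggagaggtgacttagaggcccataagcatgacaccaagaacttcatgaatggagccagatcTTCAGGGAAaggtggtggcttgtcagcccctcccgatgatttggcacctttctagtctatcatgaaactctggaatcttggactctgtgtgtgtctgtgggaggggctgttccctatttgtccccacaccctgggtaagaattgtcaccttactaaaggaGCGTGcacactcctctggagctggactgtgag
Gsta2 (chr9:78347116-78347395, minus strand): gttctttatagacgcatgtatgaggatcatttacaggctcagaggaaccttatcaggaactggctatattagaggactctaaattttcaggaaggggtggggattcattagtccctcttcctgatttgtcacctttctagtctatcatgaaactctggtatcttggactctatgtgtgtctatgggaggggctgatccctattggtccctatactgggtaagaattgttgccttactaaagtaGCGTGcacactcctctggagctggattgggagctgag
Gstm3 (chr3:107969145-107969424, minus strand): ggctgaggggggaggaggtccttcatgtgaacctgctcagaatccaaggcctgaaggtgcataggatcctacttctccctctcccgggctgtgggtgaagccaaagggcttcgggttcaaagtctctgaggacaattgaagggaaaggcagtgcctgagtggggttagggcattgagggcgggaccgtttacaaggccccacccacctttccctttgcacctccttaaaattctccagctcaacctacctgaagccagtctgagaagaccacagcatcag
Ugt3a1 (chr15:9279579-9279858, plus strand): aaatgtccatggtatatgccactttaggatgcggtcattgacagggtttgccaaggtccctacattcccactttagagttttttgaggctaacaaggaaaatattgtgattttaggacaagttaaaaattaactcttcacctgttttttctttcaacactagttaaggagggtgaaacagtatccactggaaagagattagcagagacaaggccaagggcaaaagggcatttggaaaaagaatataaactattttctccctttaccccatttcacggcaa
Sult2a8 (chr7:14446558-14446837, minus strand): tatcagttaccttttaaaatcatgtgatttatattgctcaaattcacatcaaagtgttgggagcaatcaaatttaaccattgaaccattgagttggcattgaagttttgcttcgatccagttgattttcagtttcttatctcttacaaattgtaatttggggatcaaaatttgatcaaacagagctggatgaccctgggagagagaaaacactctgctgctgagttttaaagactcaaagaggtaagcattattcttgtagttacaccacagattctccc

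The Gsta1 and Gsta2 stretches are duplicates of each other, with the same base at 219 of 264 aligned positions (83.0%) and a longest shared run of 29 bases. Their GCGTG lies inside a run that the pair share. It begins 2 bases before the start in Gsta1, where it runs into the transcript, and 7 bases before it in Gsta2. In all, 42 of the 49 members had a promoter entry, some with more than 1 start, which gave 53 windows of 250 bases before to 50 after a start. Both strands were searched. GCGTG was found in 13 of the 53 member windows (24.5%) and in 32.4% of 32851 windows of all genes. Of the 9 members higher at both times, 8 had an entry, and GCGTG was in 6 of their 10 windows, those of Gsta1, Gsta2, Gstm1, Gstm5 and Mgst3. In the 11 windows of members lower at both times it was found 0 times. The Gstm1 windows overlap and hold the same GCGTG, counted in each, so windows are not independent of each other. TGACNNNGC, the core of the antioxidant response element, was in 4 of 53 member windows (Gsta3, Gstm5, Gstm7 and Mgst1) and in 12.4% of all windows. In Gstm5 it overlaps a GCGTG on the other strand. CAAAGTCCA, an HNF4 element, was in the window of Sult1b1 only and in 0.475% of all windows. GTTAATNAT, an HNF1 element, was in those of Sult1d1, Ugt1a1 and Ugt1a9 and in 0.801% of all windows, and TTCNNNGAA in those of Gsta1, Gstm6, Mgst1 and Ugt1a6a and in 8.30%. These matches describe letters near the start, and no factor was measured on them.

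In the OGT-KO livers the families went different ways: 9 members were higher at both times, all of them GST or MGST genes, and 10 were lower at both times, of which 6 were UGT genes and 2 were SULT genes. With no recovery, 9 of 41 members were at least 2-fold higher (background 24.4% of all genes tested) and 12 were at least 2-fold lower (background 5.69%). After 7 days, 10 were higher (background 22.9%) and 10 were lower (background 4.27%). Members that were higher made up 22.0% and 24.4% of those past the filter, near the share of all genes, and members that were lower made up 29.3% and 24.4%, above it. No UGT or SULT gene past the filter was called higher at either time. Under the filter, Sult2b1 was past 2-fold higher at both times as deposited (1.36 and 1.75). Sult1e1 (1.18), Sult2a2 (1.91) and Sult4a1 (1.25) were so after 7 days. These genes stayed at or below 6.74 CPM in every library and were not called. For both times together the background was 19.2% higher and 3.74% lower. The sizes of both sets moved with the scaling. Under median ratios, 5 members were higher with no recovery (background 10.4%) and 22 lower (background 15.4%), 7 were higher after 7 days (background 11.6%) and 19 lower (background 11.8%), and 5 and 19 were higher and lower at both times (background 9.35% and 10.4%).

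**Figure D1:**
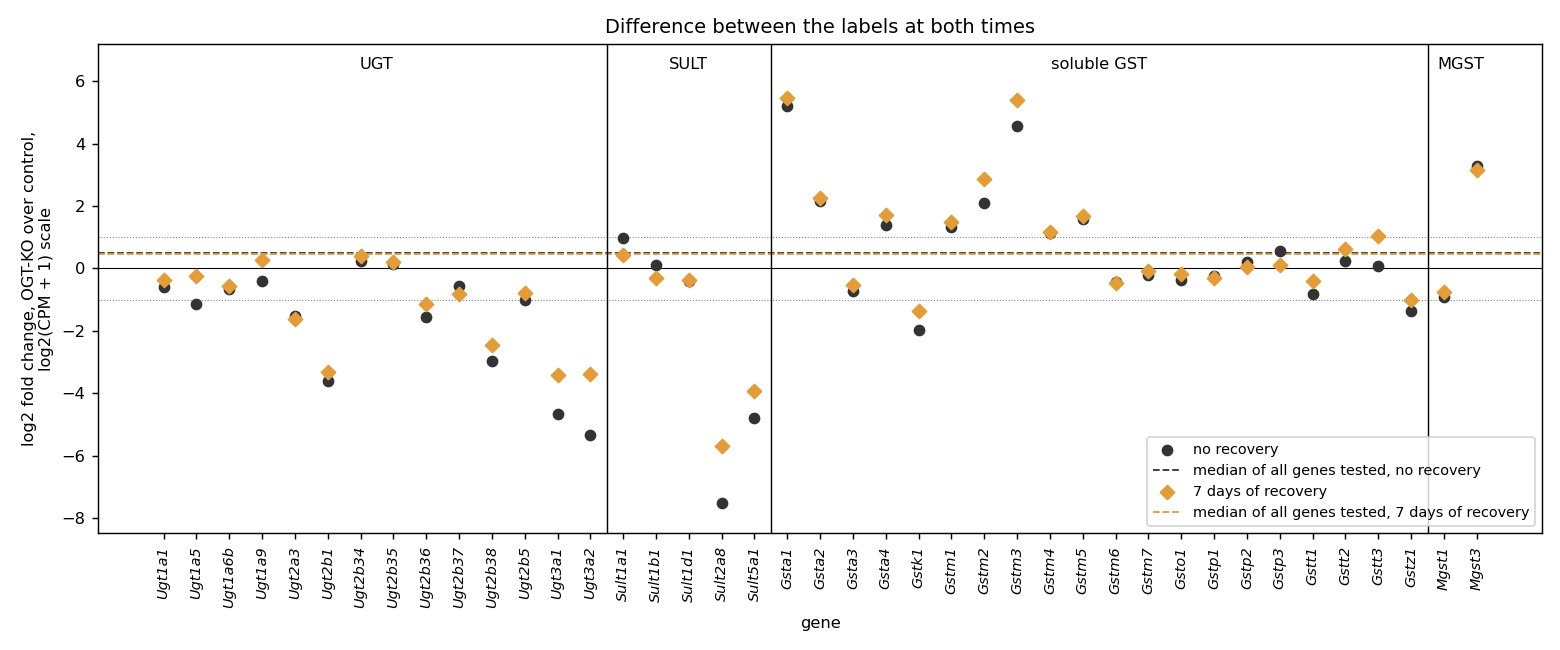
Log2 fold change of OGT-KO over control (vertical axis, log2(CPM + 1) scale, deposited scaling) for the 41 members past the filter, with no recovery (dark circles) and after 7 days (orange diamonds). Dotted lines mark 2-fold, dashed lines the median of all genes tested, and the points above the upper dotted line at both times are 8 soluble GST genes and Mgst3.

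Medians by family showed the same order. The UGT genes had a median log2 fold change of -1.08 (no recovery) and -0.79 (7 days), that of the SULT genes was -0.40 and -0.36, and that of the soluble GST genes was 0.22 and 0.37, or -0.49 and -0.29 with median-ratio scaling, against 0.51 and 0.48 (or -0.19 and -0.18) over all genes tested. Within the GST genes the alpha class had 1.78 and 1.98 and the mu class 1.32 and 1.49. Under median ratios the UGT median was -1.75 and -1.44, the SULT median -1.11 and -1.03, the alpha median 1.07 and 1.31 and the mu median 0.60 and 0.81. Summed levels, which do not depend on how reads were split among members, are given beside the medians. UGT genes together had 3702 and 3376 CPM in the control libraries and 1673 and 1760 in the OGT-KO libraries (log2 -1.15 and -0.94). SULT genes had 791 and 927 against 337 and 400 (log2 -1.23 and -1.21). Without Sult2a8 this SULT difference was reversed, to 0.43 and 0.13. Soluble GST genes had 6769 and 6401 against 11339 and 14237 (log2 0.74 and 1.15), a difference that was 0.024 and 0.47 with median-ratio scaling. The alpha class, whose sum is mostly Gsta3, had 1327 and 1179 against 1199 and 1205 (log2 -0.15 and 0.03), unlike its median. MGST genes had 2997 and 2922 against 1685 and 1793 (log2 -0.83 and -0.70).

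Per kilobase of transcript, on which genes can be compared with each other, the mu class of GST held the largest share in the OGT-KO libraries. The members together had 10554 and 10021 CPM per kb in the control libraries and 11924 and 14191 in the OGT-KO libraries. Mu genes were 17.8% and 19.5% of this in the control libraries and 51.6% and 60.1% in the OGT-KO libraries. UGT genes went from 15.3% and 14.7% to 5.49% and 4.94%, SULT genes from 3.73% and 4.76% to 1.88% and 1.83%, and MGST genes from 24.3% and 25.0% to 12.1% and 10.9%. Mgst1 ranked first of the 49 members per kb in both control libraries, and Gstm1 in both OGT-KO libraries. Gstm3 moved from rank 20 to rank 3 with no recovery and from 19 to 2 after 7 days, and Sult2a8 from rank 9 to rank 40 and from 9 to 38.

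**Figure D2:**
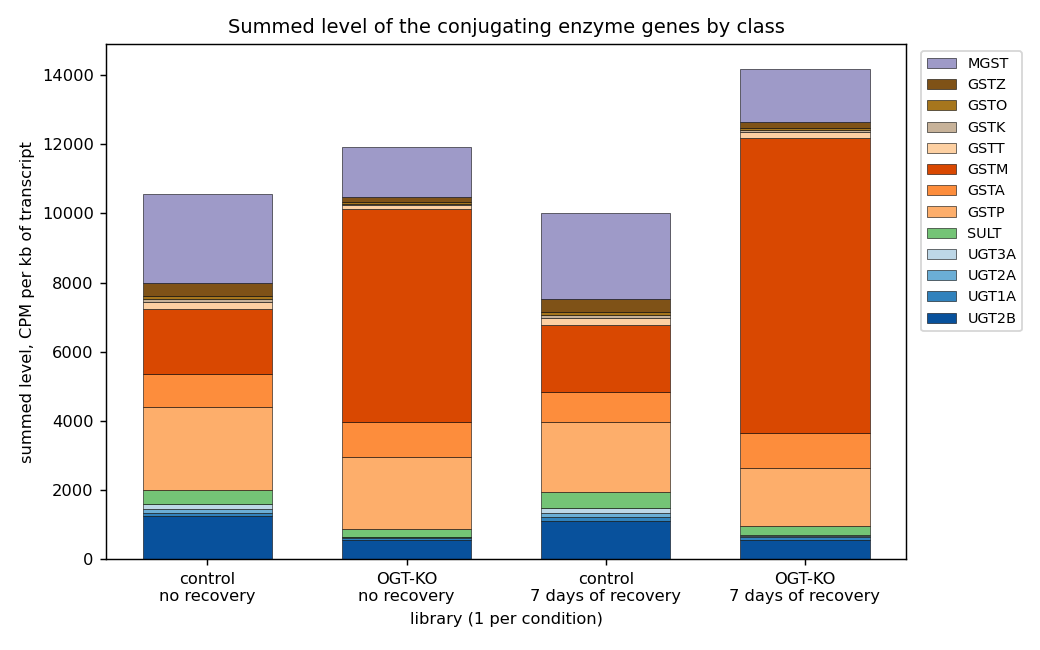
Summed level of the members by class (stacked bars, CPM per kb of transcript) in the 4 libraries, 1 per condition. The mu class (GSTM, dark orange) takes 17.8% and 19.5% of the bar in the control libraries and 51.6% and 60.1% in the OGT-KO libraries, while the blue UGT classes at the base and the SULT genes shrink.

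Among the UGT genes, those of the UGT3A class stood furthest apart. UGT3A enzymes are known in other species to use sugar donors other than UDP-glucuronic acid. Ugt3a2 had 350 and 299.1 CPM in the control libraries and 7.57 and 28.0 in the OGT-KO libraries (no recovery and 7 days, the order used throughout), a log2 fold change of -5.36 and -3.37. Ugt3a1 had 44.4 and 38.7 against 0.787 and 2.75 (-4.67 and -3.40). The neighbours therefore went together at both times, and both levels in the OGT-KO libraries were above the floor. They share 9.38% and 9.39% of their 50-base windows with other transcripts.

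UGT2 genes, which conjugate steroids and bile acids, were split by gene. Ugt2b1 had 747 and 694 CPM in the control libraries and 60.6 and 68.6 in the OGT-KO libraries, which is 12.3-fold lower with no recovery (95% exact interval 11.7 to 13.0) and 10.1-fold lower after 7 days (9.60 to 10.7). Ugt2b38 had 55.0 and 46.9 against 6.17 and 7.71 (log2 -2.97 and -2.46). Ugt2b36 had 595 and 563 against 203 and 255 (-1.55 and -1.14). These were lower at both times. Ugt2a3 had 191 and 208 against 65.8 and 67.7 (-1.52 and -1.61). Ugt2b5, the UGT gene of highest level per kb in every library, had 807 and 684 against 401 and 398, and its -1.01 and -0.78 straddle the 2-fold line, which it passed at both times with median-ratio scaling (-1.72 and -1.47). In the same neighbourhood Ugt2b34 had 426 and 374 against 505 and 491, and Ugt2b35 had 227 and 206 against 252 and 240. Their differences of 0.24 and 0.39 and of 0.14 and 0.22 turned to -0.47 and -0.29 and to -0.57 and -0.46 with median-ratio scaling. Ugt2b37 lay between 6.51 and 13.2 CPM and was not called as deposited, but was lower with median-ratio scaling (-1.20 and -1.42). Along the chromosome these stayed apart gene by gene: Ugt2b1 lies between Ugt2b34 and Ugt2b35. Ugt2b5, Ugt2b37 and Ugt2b38 share 18.3% to 41.7% of their windows with other transcripts, and summed they had 875 and 743 CPM against 416 and 412 (log2 -1.07 and -0.85).

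The UGT1A genes stood closer to 0 as deposited. Ugt1a1, the enzyme of bilirubin glucuronidation, had 162 and 176 CPM in the control libraries and 107 and 135 in the OGT-KO libraries, a log2 fold change of -0.59 and -0.39. Ugt1a5 had 11.6 and 13.2 against 4.68 and 11.03, and was called lower with no recovery only (-1.15 and -0.24). Ugt1a9, which handles phenols, had 27.6 and 12.9 against 20.7 and 15.7. Its order of labels differed between the times as deposited (-0.39 and 0.27) and not with median-ratio scaling (-1.08 and -0.38). Ugt1a6b lay between 22.7 and 36.7 CPM, and Ugt1a6a and Ugt1a7c were under the filter. The class median was -0.63 and -0.31, and with median-ratio scaling it reached -1.33 and -0.97. In that scaling the 4 genes past the filter were all lower with no recovery, and Ugt1a1 (-1.30 and -1.07) and Ugt1a6b (-1.36 and -1.21) at both times. Because these genes share exons, 58.2% to 100% of their windows are found in other transcripts, and the level of a single Ugt1a gene is uncertain.

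**Figure D3:**
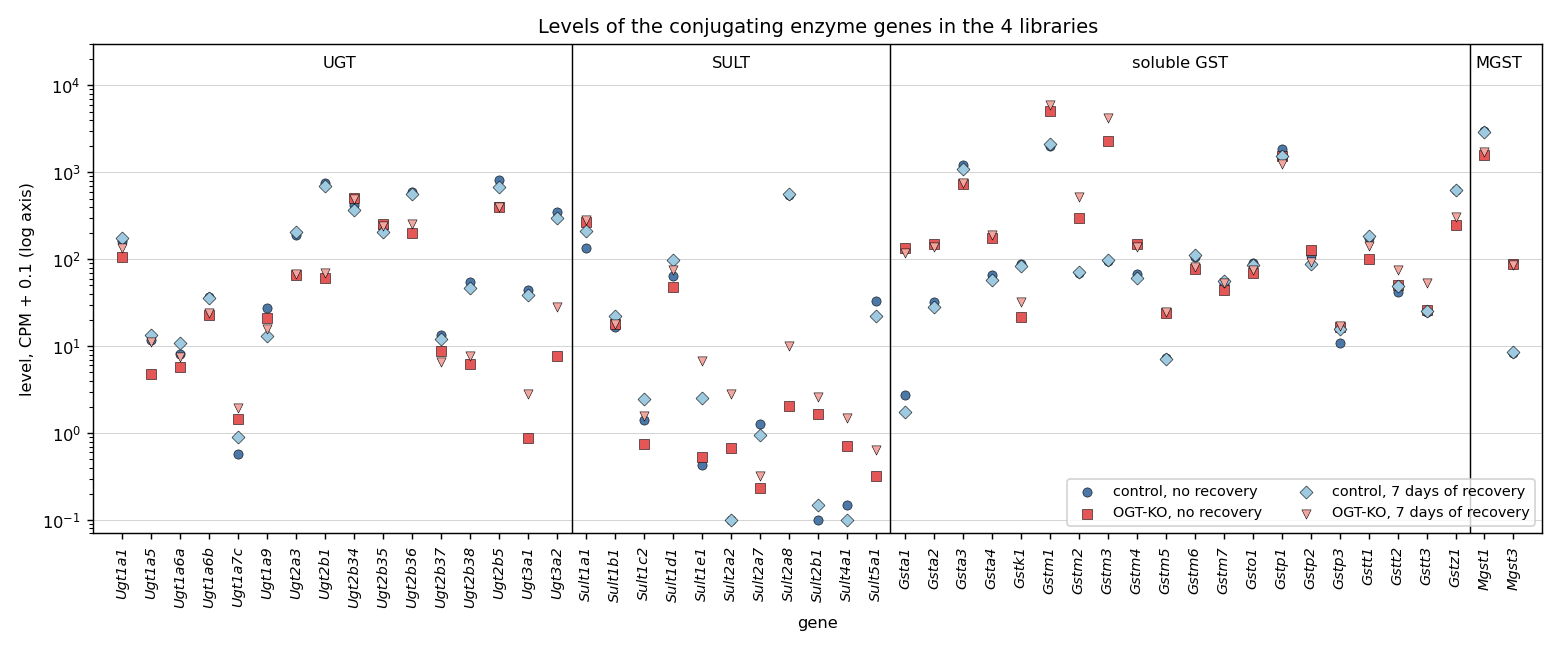
Level of each of the 49 members in each library (vertical axis, CPM + 0.1, log axis; 1 point per library). Blue points of the control libraries and red points of the OGT-KO libraries separate widely for Ugt3a1, Ugt3a2, Sult2a8, Sult5a1, Gsta1 and Gstm3 among the members past the filter, and the times of 1 label lie close together for most members.

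SULT genes were carried in the control libraries by Sult2a8, which sulfates bile acids. Sult2a8 had 542 and 570 CPM in the control libraries and 1.92 and 10.01 in the OGT-KO libraries. It was 282-fold lower with no recovery (95% exact interval 210 to 388) and 56.9-fold lower after 7 days (49.9 to 65.2). The first was the largest fold of any member past the filter in the comparison with no recovery. No 50-base window of its transcript is shared with another gene. Sult5a1 had 32.9 and 22.4 against 0.219 and 0.532 (log2 -4.80 and -3.93). Both were lower at both times. Sult1a1, which sulfates phenols, had 133 and 210 against 265 and 281, and its differences of 0.99 and 0.42 stayed under 2-fold and became 0.27 and -0.27 with median-ratio scaling. Sult1b1 lay between 16.5 and 22.2 CPM and Sult1d1, which sulfates catecholamines, between 48.1 and 97.0, with no call as deposited. Sult1d1 was lower at both times with median-ratio scaling (-1.11 and -1.03). The other 6 SULT genes were under the filter: Sult1c2, the oestrogen sulfotransferase Sult1e1, Sult2a2, Sult2a7, the cholesterol sulfotransferase Sult2b1 and the brain enzyme Sult4a1. Means of the 8 members under the filter ran from 0.508 to 7.97 CPM. Sult2a2 was listed at 0 in both control libraries, with 0.569 and 2.75 CPM in the OGT-KO libraries.

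GST alpha genes were higher in the OGT-KO libraries except for the most abundant one. Gsta1 had 2.63 and 1.65 CPM in the control libraries and 134 and 118 in the OGT-KO libraries (log2 5.22 and 5.48). Gsta2, whose start was shown beside that of Gsta1, had 32.2 and 28.4 against 148 and 140 (2.17 and 2.26). Gsta4, which conjugates lipid peroxidation products, had 65.7 and 57.1 against 174 and 189 (1.39 and 1.71). These were higher at both times, and Gsta4 was under 2-fold with no recovery under median-ratio scaling (0.68). Gsta3 had 1227 and 1092 against 742 and 759 (-0.72 and -0.52), which is 1.65-fold and 1.44-fold lower, and was past 2-fold with median-ratio scaling (-1.44 and -1.21). Most of the Gsta1 sequence cannot be told from that of its copies. Of its windows, 89.7% are shared, mostly with Gm3776, a gene that the name rule does not take in. The level of Gsta1 alone is therefore uncertain. Gm3776 had 1.41 and 0.501 CPM against 61.4 and 66.1, and Gsta1, Gsta2, Gm3776 and Gm10639 summed to 36.3 and 30.8 against 346 and 325 (3.22 and 3.36).

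Mu genes held the largest gain in level. Gstm1 had 2025 and 2101 CPM in the control libraries and 5067 and 5908 in the OGT-KO libraries, which is 2.50-fold and 2.81-fold higher. Gstm3 had 94.98 and 98.8 against 2272 and 4248 and was 23.9-fold (95% exact interval 22.9 to 25.0) and 43.0-fold (41.1 to 45.0) higher. Gstm2 had 68.7 and 71.2 against 296 and 523 (log2 2.09 and 2.86). The control libraries lay close together for all of these, and the OGT-KO libraries lay apart from each other for Gstm2 and Gstm3. Gstm4 had 66.8 and 60.5 against 148 and 139 (1.14 and 1.19), and Gstm5 had 7.29 and 7.06 against 24.0 and 24.8 (1.59 and 1.68). With median-ratio scaling Gstm1 (0.60 and 0.81) and Gstm4 (0.42 and 0.51) were under 2-fold at both times and Gstm5 with no recovery (0.92). Gstm6, between 77.5 and 112 CPM, and Gstm7, between 44.5 and 56.4 CPM, were not called as deposited, and Gstm6 was lower under median-ratio scaling (-1.16 and -1.15). On chromosome 3 the order is Gstm5, Gstm7, Gstm6, Gstm3, Gstm2, Gstm1 and Gstm4, so the uncalled pair lies between called genes. Gstm1, Gstm2 and Gstm3 share 9.36% to 28.8% of their windows with other transcripts, not all of them members. Of the Gstm1 windows, 10% are found in Gstm3 and 0.887% in Gstm2. Summed, the 3 genes had 2189 and 2271 CPM against 7635 and 10679 (1.80 and 2.23).

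**Figure D4:**
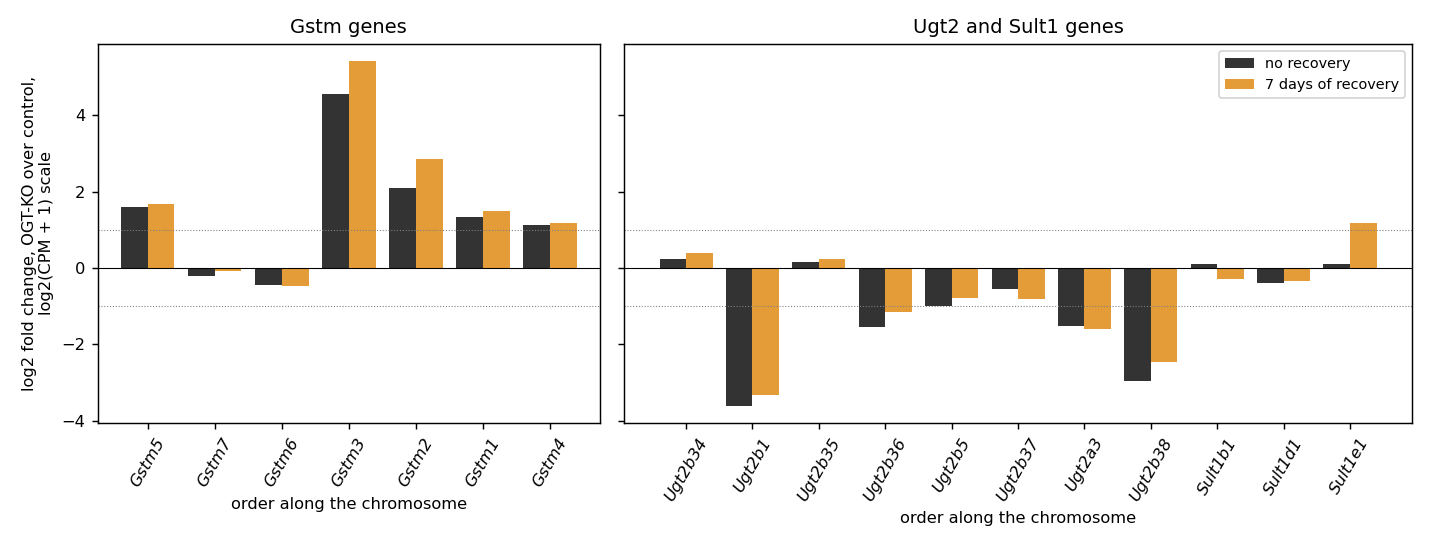
Log2 fold change of OGT-KO over control (bars, log2(CPM + 1) scale) for neighbouring members in their order along the chromosome, Gstm genes on the left and Ugt2 and Sult1 genes on the right. Gstm7 and Gstm6 stand between genes above 2-fold, and Ugt2b1 between Ugt2b34 and Ugt2b35, which are near 0.

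The zeta and kappa GST genes were lower, Gstp1 and Gstp2 stood near 0 as deposited, and the theta genes were split. Gstz1, an isomerase of tyrosine breakdown, had 632 and 620 CPM in the control libraries and 246 and 308 in the OGT-KO libraries (log2 -1.36 and -1.01). Gstk1, the kappa enzyme of mitochondria and peroxisomes, had 89.0 and 84.2 against 21.7 and 31.8 (-1.99 and -1.38). Both were lower at both times. Gstp1, one of the most abundant members in all 4 libraries, had 1848 and 1560 against 1555 and 1263 (-0.25 and -0.30), and its near copy Gstp2 had 111 and 88.2 against 127 and 92.1 (0.20 and 0.06, or -0.51 and -0.62 with median-ratio scaling). Summed, the pair differed by -0.22 and -0.28. Gstt1, which acts on halogenated compounds, had 175 and 187 against 99.8 and 141 (-0.81 and -0.41, or -1.52 and -1.09 with median-ratio scaling, past 2-fold at both times), and Gstt3 had 24.5 and 25.2 against 26.02 and 52.6, with a call after 7 days only (0.08 and 1.03). With median-ratio scaling the Gstt3 values were -0.61 and 0.37. Gsto1 (68.7 to 89.7 CPM), Gstp3 (10.9 to 16.9) and Gstt2 (42.1 to 76.1) were not called as deposited, and Gsto1 was lower with no recovery under median ratios (-1.09).

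The microsomal enzymes went opposite ways. Mgst1, an abundant membrane enzyme that conjugates electrophiles and reduces lipid peroxides, had 2989 and 2914 CPM in the control libraries and 1597 and 1708 in the OGT-KO libraries, which is 1.87-fold and 1.71-fold lower and under the 2-fold line as deposited, but past it with median-ratio scaling (-1.62 and -1.46). Mgst3 had 8.19 and 8.56 against 88.4 and 84.9, which is 10.8-fold (95% exact interval 9.24 to 12.7) and 9.92-fold (8.48 to 11.7) higher. Neither gene shares a window with another transcript. The control libraries were nearly alike for both genes, as were the OGT-KO libraries.

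The recovery interval moved far fewer members than the label. Between control libraries, 0 members were at least 2-fold higher after 7 days (background 0.245%) and 1 was lower (background 0.96%), Ugt1a9, with a log2 fold change of -1.04. Between OGT-KO libraries, 4 members were higher after 7 days (background 1.04%) and 0 were lower (background 0.435%). These were Sult2a8 (1.91), Ugt3a2 (1.76), Ugt1a5 (1.08) and Ugt3a1 (1.07), all of which had been lower in the OGT-KO library with no recovery. Their levels after 7 days, from 2.75 to 28.0 CPM, were below those of the control libraries. Ugt1a5 came close to them, at 11.03 CPM against 11.6 (no recovery) and 13.2 (7 days). Sult2a8 and the UGT3A genes stayed past 2-fold lower. Gstt3 (0.99), Gstm3 (0.90) and Gstm2 (0.82), with values above 0, were under the 2-fold line. Gstt3 was past it with median-ratio scaling (1.05), upper-quartile scaling (1.03) or a pseudocount of 0.1. Between control libraries the 4 called genes differed by 0.07, -0.23, 0.18 and -0.19, in the order given. Whether the recovery difference depends on the label was not tested.

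**Figure D5:**
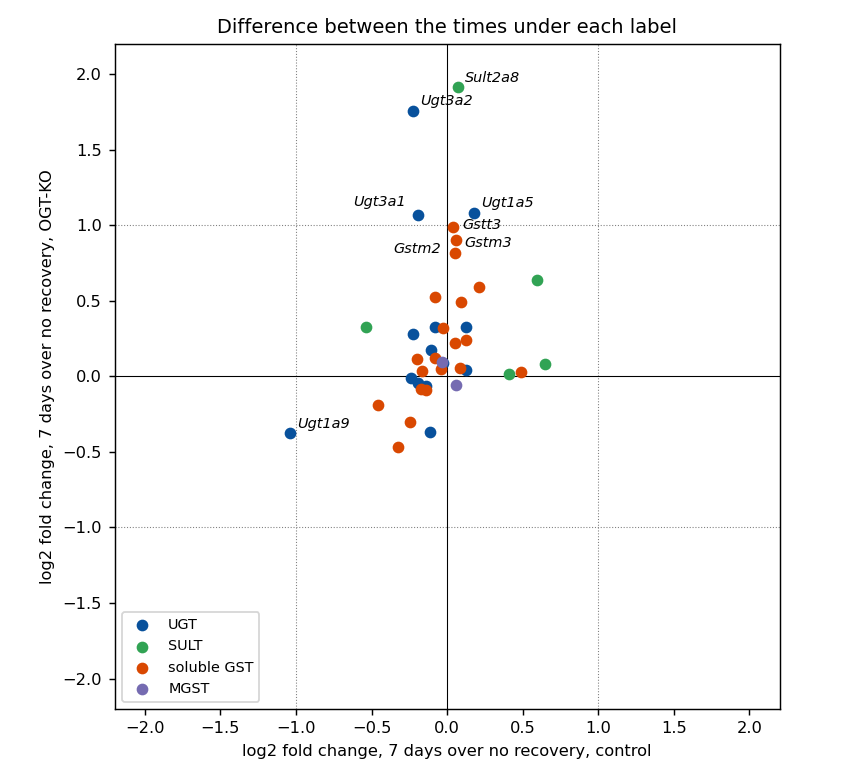
Log2 fold change after 7 days against no recovery (log2(CPM + 1) scale) in the control libraries (horizontal axis) and in the OGT-KO libraries (vertical axis) for the 41 members past the filter. Sult2a8 and the UGT3A genes lie high on the vertical axis and near 0 on the horizontal axis, and Ugt1a9 is the single point left of the dotted line at -1.

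Genes that supply the cofactors and carry the conjugates did not all follow the enzymes that use them. Over all genes tested, 24.4% were higher and 5.69% lower with no recovery, and 22.9% and 4.27% after 7 days. Under median ratios, 9.35% were higher and 10.4% lower at both times. A single higher gene in lists this short cannot be set apart from these shares. For glucuronidation, 3 of 4 genes of cofactor supply were called higher with no recovery and 1 after 7 days. Ugdh, which makes UDP-glucuronic acid, had 191 and 166 CPM against 615 and 576, and Ugp2, which makes UDP-glucose, had 229 and 268 against 644 and 499. With median-ratio scaling Ugdh was under 2-fold with no recovery and past it after 7 days (0.97 and 1.10), Ugp2 was under it at both times (0.77 and 0.21), and 0 of the 4 genes were higher at both times. For sulfation, 1 of 7 genes past the filter was higher at each time, Slc35b2, a PAPS carrier (31.6 and 33.2 against 66.4 and 76.2). Under median ratios Slc35b2 was under 2-fold (0.34 and 0.50), and 1 gene, Papss2, was lower at both times (-1.52 and -1.13). Of 8 genes of glutathione synthesis and recycling past the filter, 4 were higher and 1 was lower at each time, and under median ratios 1 was higher and 1 lower at both. Slc7a11, the cystine carrier, had 0 and 0.0501 CPM against 51.9 and 36.5, Gss had 79.0 and 80.1 against 197 and 198, and Gclc, the limiting enzyme of glutathione synthesis, had 412 and 299.4 against 1072 and 682. Of 5 transporters of conjugates past the filter, 1 was higher at each time, Abcc4, which exports conjugates to blood (3.53 and 2.25 against 84.9 and 45.0). Under median ratios Abcc4 stayed higher, and 1 gene, Abcc6, was lower at both times (-1.59 and -1.52). Of 4 genes put on a list of deconjugating and lysosomal hydrolases, Bphl was lower at both times and Gusb, the glucuronidase, was higher after 7 days (1.05). Under median ratios Bphl stayed lower (-2.02 and -1.69) and Gusb was under 2-fold (-0.32 and 0.38).

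Regulators of these enzymes and other enzymes of conjugation were listed as well, to be read beside the same shares of all genes tested. Of 12 receptors and liver factors, 1 was higher and 3 were lower with no recovery, and 2 were higher and 1 was lower after 7 days. Under median ratios 0 were higher and 6 lower at both times. Nfe2l2, the factor of the antioxidant response, had 57.0 and 48.5 CPM against 171 and 160. Nr1i3, the receptor CAR, had 182 and 159 against 66.8 and 79.8, and Hnf4a had 851 and 864 against 335 and 458. Of 12 other conjugation or oxidation genes past the filter, 4 were lower and 1 was higher with no recovery, and 3 and 1 after 7 days. Under median ratios 9 were lower and 1 was higher at both times. The higher one was Nqo1, a quinone reductase (4.94 and 4.46 against 67.3 and 51.7). Inmt, an amine methyltransferase, had 303 and 263 against 12.9 and 83.0, and Baat, which joins bile acids to taurine or glycine, had 226 and 237 against 49.8 and 69.9.

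Markers of other cells moved with the label, and their part in these results was not tested. For both times together, 19.2% of all genes tested were higher and 3.74% lower. Of the cholangiocyte markers, 5 of 5 were higher at both times, and their sum was 53.7 to 69.6 CPM in the control libraries and 1148 to 1457 in the OGT-KO libraries. Stellate cell and myofibroblast markers were higher in 6 of 6 (53.8 to 75.5 CPM against 1716 to 2218), and macrophage markers in 4 of 4 past the filter (60.3 to 157 against 370 to 498). Of endothelial markers, 1 of 4 was higher with no recovery and 0 after 7 days (103 to 143 against 165 to 224). None of these markers was listed at 0 in any library. T, NK and B cell markers (2 in the table) and neutrophil markers (3) were under the filter. Of the hepatocyte markers, Apoa1 and Apoa2 were lower at both times. Zonal and sex-biased hepatocyte genes moved too: 2 of 3 periportal and 3 of 3 perivenous genes were lower with no recovery and 2 of 3 of each after 7 days, and 6 of 7 male-biased genes were lower at each time. Cyp2a4, the female-biased gene past the filter, was higher at both times, and 0 of 4 Y-linked genes were called as deposited. Under median ratios, 9.35% of all genes tested were higher and 10.4% lower at both times. In that scaling 5 of 5 cholangiocyte, 6 of 6 stellate cell and myofibroblast and 3 of 4 macrophage markers were higher at both times. Lower at both times were 3 of 6 hepatocyte markers, 3 of 3 periportal, 3 of 3 perivenous and 7 of 7 male-biased genes. In bulk liver, fewer cells of a type and less RNA per cell cannot be told apart for any of these genes.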

How the data were processed

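Liver mRNA libraries were prepared with the Tecan universal plus mRNA-seq kit. The submitters' processing notes name STAR, DESeq2 and GRCm39, with no order or settings. The deposited table holds CPM: every column adds up to 1e+06, and division by the value of 1 read left whole numbers (tolerance 0.05 reads) in 100% of cells, which recovers the reads. How reads on near-identical genes were counted is not given in the sources used here.

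Members were compared as differences of log2(CPM + 1), called at 2-fold, over genes averaging 10 CPM or more across the 4 libraries. Ratios have exact conditional binomial intervals (95%). Levels per kb used the longest coding transcript of GENCODE M21, and shared sequence was counted as identical 50-base windows. As alternatives, the filter was dropped or set to 50 CPM and the pseudocount to 0.1 or 10, beside median-ratio or upper-quartile scaling, a 4-fold threshold and an exact binomial test with Benjamini-Hochberg adjustment. Steps were tested on simulated reads. Python 3.11.15, numpy 2.4.6, pandas 2.3.3 and scipy 1.17.1 were used.

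The name rule for the members used no values, but it and all lists were set with earlier results of these data known. Members with a mean of at least 100 CPM, called at both times between the labels, or called in a recovery comparison were given in every library. Gstt3, Sult2a2 and Papss2 were added after their values were seen, as were Gm3776 and Gm10639. Of other lists, genes with the largest mean absolute difference were named. Protein identity was planned and not run here.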

Additional observations from a re-analysis of the deposited data

Results flagged for a closer look

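The UGT3A genes were singled out because their recovery differences have opposite signs under the labels and met 2 further conditions. Both counting intervals excluded equality, and at least 1 of the differences reached 2-fold. Opposite signs alone were also seen in other members, such as Ugt2b36 (-0.08 in control, 0.33 in OGT-KO) and Gstk1 (-0.08 and 0.53). Ugt3a1 differed after 7 days by -0.19 (log2) between the control libraries and by 1.07 between the OGT-KO libraries. Ugt3a2 differed by -0.23 and by 1.76. In the OGT-KO libraries these went from 0.787 to 2.75 CPM and from 7.57 to 28.0 CPM, above the floor of 0.131 to 0.150 CPM. The difference between the labels was not tested, since each condition is 1 library.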

How the results depend on the processing

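No paired analysis was possible because each group has 1 library, and no replicate could be left out. With median-ratio scaling, members higher and lower with no recovery numbered 5 and 22, and members lower after 7 days numbered 19. With no filter 10 were higher with no recovery, Sult2b1 being added. At a 4-fold threshold 5 were higher and 6 lower at each time. The share of all genes was not counted at that threshold, nor with another filter, another pseudocount or upper-quartile scaling. Counts under those settings describe the members only. For the recovery of the control libraries, 1 member was higher with no filter (Sult1e1), and 0 were lower with a pseudocount of 10, a mean of at least 50, upper-quartile scaling or a 4-fold threshold. For that of the OGT-KO libraries, 1 was higher with a pseudocount of 10 (Ugt3a2), 2 with a mean of at least 50 (Sult2a8 and Ugt3a2) and 0 at 4-fold, while 5 were higher, with Gstt3 added, under either other scaling or a pseudocount of 0.1, and 6 with no filter. The exact binomial test on reads, which compares libraries and not conditions, kept every 2-fold call. It did so over all genes tested as well, with 2185 of 2185 higher and 510 of 510 lower kept with no recovery. At this depth it could hardly remove a call, so it adds nothing on the members.

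Summed levels (log2, no recovery then 7 days) moved as follows. UGT genes had -1.87 and -1.63 with median-ratio scaling, -1.63 and -1.43 with upper-quartile scaling, and -1.19 and -0.98 without Ugt2b5. SULT genes had -1.95 and -1.90, -1.71 and -1.70, and, without Sult2a8, 0.43 and 0.13, which is a reversal made by leaving out that gene. Soluble GST genes had 0.024 and 0.47, 0.26 and 0.67, and 0.40 and 0.95 without Gstm1. MGST genes had -1.55 and -1.39, -1.31 and -1.19, and, without Mgst1, 3.43 and 3.31, where the sum is Mgst3 alone. The cause of the shift between scalings was not tested. The 100 most abundant genes held 42.8% and 45.0% of the reads in the control libraries and 34.1% and 34.3% in the OGT-KO libraries. Depth limits the members near the floor, such as Sult2a2, and the absence of replicates limits every other comparison.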
